A study of Gallus gallus with 12 samples.

Results

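PPARG, CEBPA, CEBPB, LPL, ADIPOQ and CD36 are 6 genes that control or carry out the work of fat cells, and they were picked by the Symbol column of the deposited gene tables. These 6 were among 18332 genes measured by RNA sequencing in 12 libraries. Each symbol matched 1 NCBI gene, with the identifiers 373928 for PPARG, 427549 for CEBPA, 396185 for CEBPB, 396219 for LPL, 404536 for ADIPOQ and 417730 for CD36.

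The birds were female Xinghua chickens, a Chinese native breed that served as the normal chicken of the study. They are labelled as 8 weeks old, the age at which a feeding period of 2 weeks began before slaughter. HN birds received a high-fat diet (HFD) and NN birds a normal diet, and liver and abdominal fat were sequenced with 3 libraries in each of the 4 groups HN liver, NN liver, HN fat and NN fat. The sex-linked dwarf chickens of the same study were not analysed here. Both tissues were taken whole, so the values average over every cell type present.

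PPARG is a nuclear receptor that is switched on by lipid ligands and pairs with a retinoid X receptor on DNA, and fat cells do not form without it in mice. CEBPA and CEBPB are leucine zipper factors. In cultured mouse preadipocytes CEBPB comes first and helps to switch on PPARG and CEBPA, which then keep each other on, while in the liver both C/EBP factors also serve hepatocyte genes. The 3 other genes are products of the mature fat cell. Lipoprotein lipase (LPL) is secreted and frees fatty acids from circulating lipoproteins, CD36 is a membrane receptor that takes up fatty acids, and adiponectin (ADIPOQ) is a hormone that fat cells release into the blood. In chickens most fatty acids are made in the liver, so abdominal fat depends on lipid that arrives in lipoproteins.

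Values are fragments per kilobase of transcript, scaled to the mapped fragments of the library (FPKM), so levels of different genes are compared per length. The summed FPKM was 472622 to 504508 in the 6 fat libraries and 571235 to 642102 in the 6 liver libraries, and the number of reads per library is unknown from these files. Steps between low values put the relative depths between 0.987 and 1.03. Only values close to each gene's lowest entered this estimate, so it could not have shown a much shallower library. The share of this sum held by the top 10 genes was 10.1% to 11.8% in fat and 21.8% to 25.6% in liver. The labelled tissues matched their defining markers. FABP4, the fatty acid binding protein of fat cells, was 10767 to 15730 FPKM in fat and 2.44 to 3.87 FPKM in liver, while ALB, serum albumin made by hepatocytes, was 19544 to 55672 FPKM in liver and 19.4 to 96.5 FPKM in fat.

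**Figure D1:**
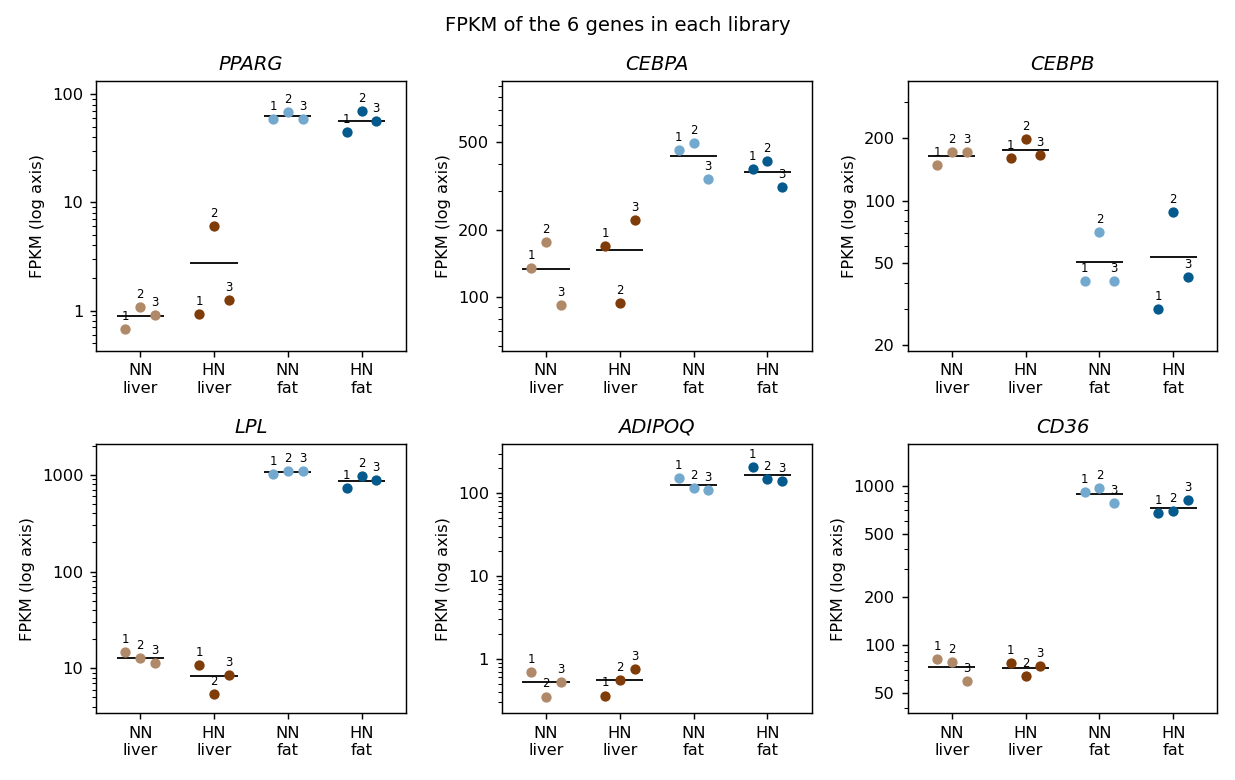
FPKM (log axis) of the 6 genes in each library of the 4 groups, with the replicate number over each point and the group mean as a line. Fat lies above liver for 5 genes and below it for CEBPB, and the PPARG point of HN liver replicate 2, at 6.08 FPKM, stands above the 5 other livers.

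To find how far the 6 genes separated the tissues, fat was compared with liver within each diet. PPARG, CEBPA, LPL, ADIPOQ and CD36 were higher in abdominal fat on both diets, and CEBPB was higher in liver on both diets. In NN birds the ratio of the fat mean to the liver mean was 242 for ADIPOQ, 83.2 for LPL, 70.0 for PPARG, 12.1 for CD36 and 3.22 for CEBPA, whereas for CEBPB the liver mean was 3.24 times the fat mean. The groups did not overlap for any of the 6 genes on either diet. Such separation was common, since 78.5% of the 12492 genes tested in NN birds and 70.8% of the 12511 genes tested in HN birds did not overlap between the tissues.

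All 6 tissue differences passed the test on both diets (limma on log2(FPKM + 1), Benjamini-Hochberg adjusted p under 0.05, n = 3 per group). Of all genes tested in NN birds, 59.4% were called higher in fat and 16.6% lower, and in HN birds 50.7% and 14.8%, so a call in fat was the usual outcome. In NN birds the differences of all genes ran from -2.37 at percentile 5 to 2.97 at percentile 95, with PPARG, LPL, ADIPOQ and CD36 above that range and CEBPA and CEBPB inside it. The median gene was 0.65 higher in fat on the log2 scale in NN birds and 0.64 in HN birds. Rescaling the libraries by median ratios brought these medians to -0.01 on both diets and split the calls into 3981 higher and 4051 lower in NN birds against 7416 and 2075 without it, and into 3538 and 3716 in HN birds against 6349 and 1853. Relative to the median gene of NN birds, the members stood at 5.73 for ADIPOQ, 5.63 for LPL, 4.42 for PPARG, 2.94 for CD36, 1.06 for CEBPA and -2.37 for CEBPB. In whole tissue, fewer cells of a type and less RNA per cell cannot be told apart.

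**Figure D2:**
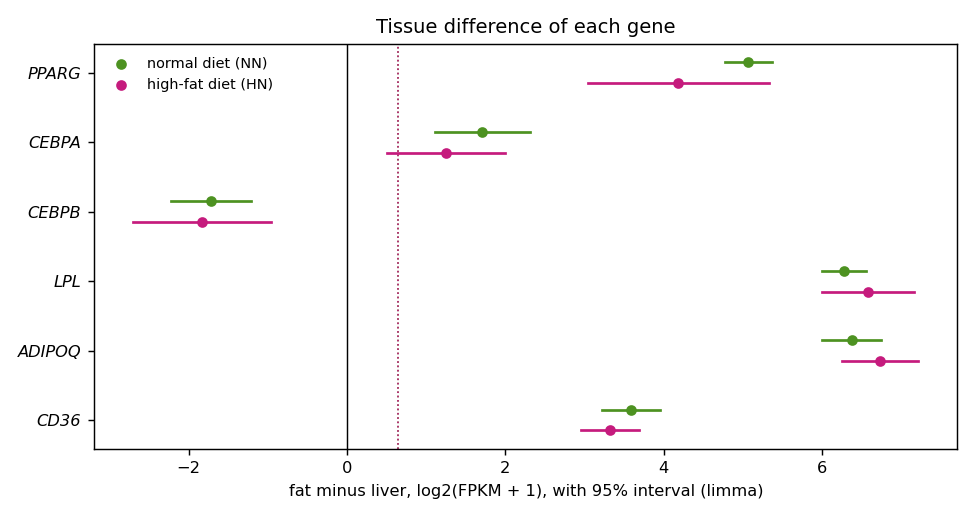
Difference between fat and liver in log2(FPKM + 1) for each gene in NN and HN birds, with the 95% interval from limma. The dotted lines, which fall together, mark the median of all genes tested (0.65 in NN and 0.64 in HN birds), and the HN interval of CEBPA, 0.50 to 2.00, includes that median.

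PPARG in abdominal fat was 59.25, 68.35 and 59.37 FPKM in the NN birds and 44.84, 69.73 and 56 FPKM in the HN birds. In liver it was 0.68, 1.08 and 0.91 FPKM in the NN birds and 0.93, 6.08 and 1.25 FPKM in the HN birds. The diet groups overlapped in both tissues, and 5 of the 6 livers lay near 1 FPKM, where single genes rest on few fragments. The tissue difference of PPARG was 5.07 (SE 0.13, limma adjusted p = 9.7e-08) in NN birds and 4.18 (SE 0.48, adjusted p = 0.00027) in HN birds. The difference between these, the diet by tissue interaction, was -0.88 with a 95% interval of -2.09 to 0.32 (adjusted p = 0.998), and it was -0.30 without HN liver replicate 2.

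CEBPA was the most abundant of the 3 regulators in fat. Its fat values were 463.25, 496.74 and 339.36 FPKM in NN birds and 378.03, 411.93 and 312.95 FPKM in HN birds. The liver values were 134.98, 176.86 and 91.66 FPKM in NN birds and 169.8, 93.88 and 223.47 FPKM in HN birds. Every fat library was above every liver library, while within each tissue the diets overlapped. The tissue difference was 1.71 (SE 0.25, limma adjusted p = 0.00058) in NN birds and 1.25 (SE 0.32, adjusted p = 0.0104) in HN birds. Under median-ratio scaling the HN difference was 0.48 with an adjusted p of 0.208 and the call was lost.

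CEBPB ran the other way. In liver it was 148.71, 172.63 and 171.51 FPKM in NN birds and 161.32, 199.77 and 165.78 FPKM in HN birds. In fat it was 40.86, 70.21 and 41 FPKM in NN birds and 30.02, 88.1 and 42.64 FPKM in HN birds. The livers were close together, and replicate 2 was the highest library in both tissues on each diet. The tissue difference was -1.72 (SE 0.22, limma adjusted p = 0.00023) in NN birds and -1.83 (SE 0.37, adjusted p = 0.0037) in HN birds, and it kept its direction and its call under all 13 alternatives on each diet.

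The balance of both C/EBP genes differed by tissue within each library. CEBPA was 7.08 to 11.3 times CEBPB in NN fat and 4.68 to 12.6 times CEBPB in HN fat. In liver the ratio was 0.534 to 1.02 in NN birds and 0.470 to 1.35 in HN birds, so that both genes were near the same level there. The lowest fat ratio was that of HN replicate 2, which had the highest CEBPB of the fat libraries. PPARG was likewise set against PPARA, the receptor of the same family that drives fatty acid oxidation genes in liver. Their ratio was 19.6 to 26.9 in NN fat, 24.3 to 35.6 in HN fat and 0.0180 to 0.0269 in NN liver. In HN liver it was 0.0323, 0.654 and 0.0521 in replicates 1, 2 and 3.

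LPL was the most abundant of the 6 genes in fat on either diet by its mean, with CD36 next. In fat LPL was 1011.38, 1105.29 and 1099.69 FPKM in NN birds and 732.47, 979.5 and 881.93 FPKM in HN birds. In liver it was 14.58, 12.75 and 11.34 FPKM in NN birds and 10.8, 5.47 and 8.56 FPKM in HN birds. All 3 HN values lay below all 3 NN values in each tissue. The tissue difference was 6.28 (SE 0.12, limma adjusted p = 4.4e-08) in NN birds and 6.58 (SE 0.25, adjusted p = 1.5e-06) in HN birds.

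ADIPOQ had the largest ratio between the tissues of the 6 genes. Fat held 152.52, 116.75 and 110.03 FPKM in NN birds and 209.69, 149.39 and 140.84 FPKM in HN birds. Liver held 0.69, 0.35 and 0.53 FPKM in NN birds and 0.36, 0.55 and 0.76 FPKM in HN birds. Every liver was below 1 FPKM, and the diets overlapped in both tissues. The tissue difference was 6.38 (SE 0.16, limma adjusted p = 9.7e-08) in NN birds and 6.74 (SE 0.20, adjusted p = 6.3e-07) in HN birds.

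CD36 was the product with the smallest tissue ratio, because its liver level was well above those of LPL and ADIPOQ. Its fat values were 914.63, 967.17 and 775.96 FPKM in NN birds and 677.37, 695.63 and 811.39 FPKM in HN birds. Its liver values were 81.59, 78.47 and 59.61 FPKM in NN birds and 77.38, 64.27 and 74.31 FPKM in HN birds. The tissues were far apart and the diets overlapped in each of them. The tissue difference was 3.59 (SE 0.15, limma adjusted p = 1.1e-06) in NN birds and 3.32 (SE 0.15, adjusted p = 4.0e-06) in HN birds.

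The order of the means in NN fat was LPL at 1072 ± 52.7 FPKM (SD, n = 3), CD36 at 886 ± 98.8, CEBPA at 433 ± 82.9, ADIPOQ at 126 ± 22.8, PPARG at 62.3 ± 5.22 and CEBPB at 50.7 ± 16.9 FPKM. Each gene of this order stood clear of its neighbours in all 3 libraries except PPARG and CEBPB, whose values overlapped. In NN liver the order was CEBPB at 164 ± 13.5 FPKM (SD, n = 3), CEBPA at 135 ± 42.6, CD36 at 73.2 ± 11.9, LPL at 12.9 ± 1.62, PPARG at 0.890 ± 0.201 and ADIPOQ at 0.523 ± 0.170 FPKM. CEBPB and CEBPA overlapped there, as did PPARG and ADIPOQ, and the other neighbours did not. The HN means followed the same order in each tissue, at 865 ± 124, 728 ± 72.7, 368 ± 50.3, 167 ± 37.5, 56.9 ± 12.5 and 53.6 ± 30.5 FPKM (SD, n = 3) in fat from LPL down to CEBPB. LPL and CD36 overlapped in HN fat, as did PPARG and CEBPB. In HN liver the means were 176 ± 21.0 FPKM (SD, n = 3) for CEBPB, 162 ± 65.1 for CEBPA, 72.0 ± 6.86 for CD36, 8.28 ± 2.68 for LPL, 2.75 ± 2.89 for PPARG and 0.557 ± 0.200 FPKM for ADIPOQ. CEBPB and CEBPA overlapped in HN liver, as did LPL and PPARG. In HN liver replicate 2 PPARG, at 6.08 FPKM, was above LPL, at 5.47 FPKM.

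To ask whether the HFD changed the 6 genes, HN and NN were compared within each tissue. In liver no member passed the test, and neither did any of the 11278 genes tested (0.0% called by limma). At an unadjusted limma p under 0.05 there were 1349 genes, 386 higher and 963 lower in HN liver. The lower ones were 8.54% of all genes tested. In abdominal fat no member passed either, where 1 of 12394 genes was called (0.00807%), with 580 genes or 4.68% at an unadjusted p under 0.05. LPL was the only member whose diet groups did not overlap, in the lower direction in both tissues. Among all genes tested, 15.0% were lower in HN birds with no overlap in liver, 6.81% in fat, and 2.07% in both tissues (219 of 10561 genes). With 3 birds against 3, the exact two-sided permutation test cannot give a p below 0.1.

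**Figure D3:**
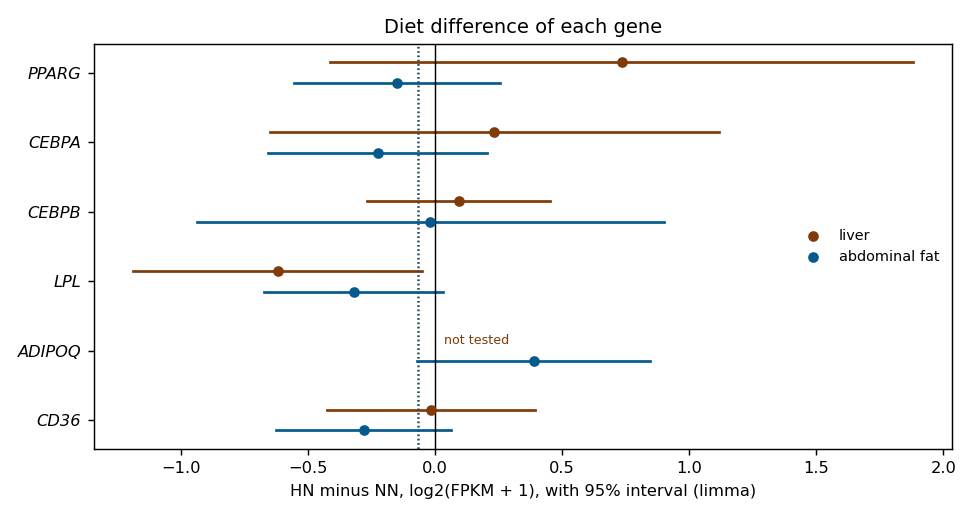
Difference between HN and NN birds in log2(FPKM + 1) for each gene in liver and in abdominal fat, with the 95% interval from limma, and dotted lines at the medians of all genes tested (-0.06 in liver and -0.07 in fat). All intervals cross 0 except that of LPL in liver (-1.19 to -0.05), and ADIPOQ in liver was below the limit for testing.

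The mean of LPL in HN liver was 0.642 times that in NN liver, a difference of -0.62 with a 95% interval of -1.19 to -0.05 (unadjusted limma p = 0.037, adjusted p = 0.406, exact permutation p = 0.1). At an unadjusted p under 0.05, 8.54% of all genes tested were lower in HN liver, a share that depended on the scaling. In fat the ratio of the means was 0.806 and the difference was -0.32 with an interval of -0.67 to 0.03 (unadjusted limma p = 0.0697, adjusted p = 0.799, exact permutation p = 0.1). LPL was thus lower in all HN libraries of both tissues, and this did not pass the adjusted test in either. The gap between the groups was narrow, since the lowest NN value was 1.05 times the highest HN value in liver and 1.03 times in fat. The interaction of LPL was 0.30 with an interval of -0.32 to 0.92 (limma adjusted p = 0.998), and it was 0.06 without HN liver replicate 2 and 0.49 without HN liver replicate 1.

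For the other members the intervals bound how large a diet difference these birds allow. In fat the difference was 0.39 for ADIPOQ (interval -0.07 to 0.85), -0.28 for CD36 (-0.62 to 0.06), -0.23 for CEBPA (-0.66 to 0.21) and -0.15 for PPARG (-0.56 to 0.26). CEBPB in fat had the widest interval, -0.94 to 0.90 around -0.02. Adjusted limma p-values of the 6 members in fat were 0.799 to 0.994. In liver CD36 differed by -0.02 (-0.42 to 0.39), CEBPB by 0.09 (-0.27 to 0.45) and CEBPA by 0.23 (-0.65 to 1.12), with adjusted limma p-values of 0.976, 0.816 and 0.81. ADIPOQ in liver had an exact permutation p of 0.7 and was below the mean of 1 FPKM set for the limma test. The interaction was not called for any of the 6 genes or for any of the 12544 genes tested (0.0% by limma, 570 genes or 4.54% at an unadjusted p under 0.05). With the replicate number as a block, 4 genes were called, all lower and none of them a member.

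PPARG in liver differed by 0.73 with an interval of -0.41 to 1.88 (limma adjusted p = 0.556), and the width came from HN replicate 2. That library held 6.08 FPKM of PPARG against 0.68 to 1.25 FPKM in the 5 other livers. Without it the mean of PPARG over the remaining livers fell below 1 FPKM and the gene was not tested. Of the products of fat cells in the same library, ADIPOQ was 0.55 FPKM, LPL was the lowest of the 6 livers at 5.47 FPKM and FABP4 was 3.56 FPKM, within its range of 2.44 to 3.87 FPKM. The perilipin PLIN1, which coats lipid droplets, was 8.29 FPKM there against 5.9 to 23.63 FPKM in the 5 other livers. The lipid droplet genes CIDEC and PLIN4 were highest in this library, at 250.93 FPKM against 71.22 to 177.48 FPKM and at 135.03 FPKM against 22.3 to 113.19 FPKM, and so was the sum of the 4 fat cell markers other than the members, at 398 FPKM against 119 to 317 FPKM. Their part in the PPARG value was not tested.

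Other genes around PPARG also set HN liver replicate 2 apart, and these were chosen after their values were seen. PPARD, the third receptor of the family, was 16.23 FPKM against 3.09 to 4.62 FPKM in the 5 other livers. PPARA was 9.3 FPKM there, against 28.77 and 23.99 FPKM in HN replicates 1 and 3 and 33.86 to 41.34 FPKM in NN livers. LPIN1, the lipin that makes diacylglycerol and coactivates PPARA in mouse liver, was 43.11 FPKM against 1.6 to 4.54 FPKM. G0S2, an inhibitor of the lipase PNPLA2, was 781.37 FPKM against 39.35 to 207.99 FPKM.

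The fat library with the same number also differed from the others of its group. The CEBPD, LPIN1 and PPARD values given for it were chosen after they were seen. The sum of the 4 fat cell markers other than the members was lowest there of all fat libraries, at 13510 FPKM. NN fat replicate 2 was close to it at 13832 FPKM, so a low sum was not particular to the HN library. In HN fat replicate 2, CEBPD, a C/EBP factor that acts early in adipogenesis, was 420.59 FPKM against 72.19 to 127.36 FPKM in the 5 other fat libraries. LPIN1 was 120.82 FPKM against 26.2 to 85.75 FPKM and PPARD was 55.8 FPKM against 22.99 to 36.69 FPKM. CEBPB at 88.1 FPKM was above its range of 30.02 to 70.21 FPKM in those libraries. Replicate 2 was the highest HN fat library for 4 of the 6 members and the highest NN fat library for 5 of them, while it was the highest of HN fat for 24.7% of all 12394 genes and of NN fat for 43.5%. ADIPOQ did not follow, since replicate 1 was the highest on both diets. Without HN fat replicate 2 or HN liver replicate 2 no member gained a diet call.

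No cell type marker was called by limma in either diet comparison, but some summed marker levels differed between the diets without overlap. Such separation gives an exact two-sided permutation p of 0.1 at best, and 10 marker lists were compared in each tissue. Of all single genes tested, 15.0% in liver and 6.81% in fat were lower in HN birds without overlap. The shares that were higher without overlap are not given here. Sums below that were higher in HN birds thus have no share of all genes in their direction beside them. The summed FPKM of 7 fibroblast or preadipocyte markers was 4340 to 9749 in HN fat and 3929 to 4225 in NN fat, without overlap, and COL1A1, a collagen of fibroblasts, ran from 751.29 to 2511.64 FPKM in HN fat. The sum of 6 hepatocyte markers was 3479 to 7763 in HN fat and 8533 to 10544 in NN fat, of which APOA1 alone gave 3455 to 7735 and 8506 to 10501 FPKM. The sum of 4 fat cell markers other than the members overlapped in fat (13510 to 16333 in HN, 13832 to 18358 in NN) and did not overlap in liver (215 to 398 in HN, 119 to 178 in NN). In liver this sum came mostly from CIDEC and PLIN4, both lipid droplet proteins, and not from FABP4. None of these markers was at 0 in fat, or among the fat cell markers in liver. The sum of 5 endothelial markers, cells that hold LPL at the vessel wall, was 412 to 677 in HN fat and 613 to 724 in NN fat, and 29.0 to 47.4 in HN liver and 46.0 to 72.2 in NN liver, overlapping in both tissues. The part of these markers in the diet values of the 6 genes was not tested. For the remaining 6 of 10 marker lists the sums of the diet groups overlapped in both tissues.

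Partners of PPARG were divided between the tissues. Of 11 genes of the PPAR family, retinoid X receptors and cofactors, 4 were called higher in fat and 6 lower in NN birds, and 4 and 5 in HN birds, with median differences of -0.38 and -0.18 beside 0.65 and 0.64 over all genes. The shares of all genes called higher and lower in fat were 59.4% and 16.6% in NN birds and 50.7% and 14.8% in HN birds. Under median-ratio scaling the counts of the list were 2 and 6 in NN birds and 0 and 7 in HN birds. The calls of several genes of the list thus depended on the scaling. Over all genes that scaling called 3981 higher and 4051 lower of 12492 in NN birds, and 3538 and 3716 of 12511 in HN birds. PPARD was higher in fat, at 36.32, 36.69 and 22.99 FPKM against 3.09, 4.02 and 3.77 FPKM in liver of NN birds, and its HN call was lost under median-ratio scaling (limma adjusted p = 0.057). PPARA was higher in liver, at 37.7 ± 3.74 FPKM (SD, n = 3) against 2.87 ± 0.637 in fat of NN birds, as were the coactivator PPARGC1A and the retinoid X receptor RXRG. RXRG was 88.1 ± 10.9 FPKM in NN liver and 22.4 ± 7.46 FPKM in NN fat.

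Of 14 other factors that promote adipogenesis, 10 were called higher in fat and 1 lower on each diet, with medians of 1.22 in NN and 1.41 in HN birds. Over all genes, 59.4% in NN and 50.7% in HN birds were called higher in fat. Under median-ratio scaling 8 and 3 were called in NN birds and 7 and 2 in HN birds. This scaling called 3981 higher and 4051 lower of all 12492 genes in NN birds, and 3538 and 3716 of 12511 in HN birds. The early B-cell factors EBF1, EBF2 and EBF3 and the zinc finger factor ZNF423, which commit precursors to fat cells in mice, led the list. EBF3 was 20.6 ± 2.04 FPKM in NN fat and 0.140 ± 0.111 FPKM in NN liver, and EBF1 was 17.5 ± 0.443 and 0.253 ± 0.0777 FPKM.

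Of 9 tested factors that restrain adipogenesis, 7 were called higher in fat and 1 lower in NN birds, and 6 and 1 in HN birds, beside 59.4% and 50.7% of all genes called higher. Median-ratio scaling gave 5 and 1 in NN and 4 and 1 in HN birds. Beside these it called 3981 higher and 4051 lower of all 12492 genes in NN birds, and 3538 and 3716 of 12511 in HN birds. KLF2, which represses Pparg in mouse cells, was 199 ± 45.2 FPKM in NN fat and 16.2 ± 1.72 FPKM in NN liver. GATA2 and ZNF521, which hold back fat cell formation in mice, were called higher in fat too. The 1 gene called lower in fat, on each diet, was SFRP1. It is a secreted Wnt antagonist that can favour fat cell formation in mouse cells, so its place in this list is uncertain.

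Of 14 tested lipid genes of fat cells that PPARG controls in mammals, 10 were called higher in fat and 2 lower in NN birds, and 9 and 1 in HN birds, with medians of 2.59 and 1.77. The shares of all genes called higher in fat were 59.4% in NN and 50.7% in HN birds. Median-ratio scaling gave 9 and 4, and 5 and 3. With it, 3981 of all 12492 genes were called higher and 4051 lower in NN birds, and 3538 and 3716 of 12511 in HN birds. FABP4 had the largest difference of the list, 11.66 (SE 0.18, limma adjusted p = 3.7e-08) in NN birds. PLIN1 was 1616 ± 302 FPKM in NN fat and 17.0 ± 5.60 FPKM in NN liver, and PNPLA2, the main triglyceride lipase of fat cells, was 1243 ± 170 and 47.5 ± 7.14 FPKM. PCK1, which supplies glycerol backbones in mammalian fat and makes glucose in liver, went the other way, at 0.553 ± 0.0971 FPKM in NN fat and 82.99, 88 and 537.25 FPKM in the NN livers. FABP4 thus exceeded all 6 members in fat, and PCK1 was below 1 FPKM in every fat library.

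**Figure D4:**
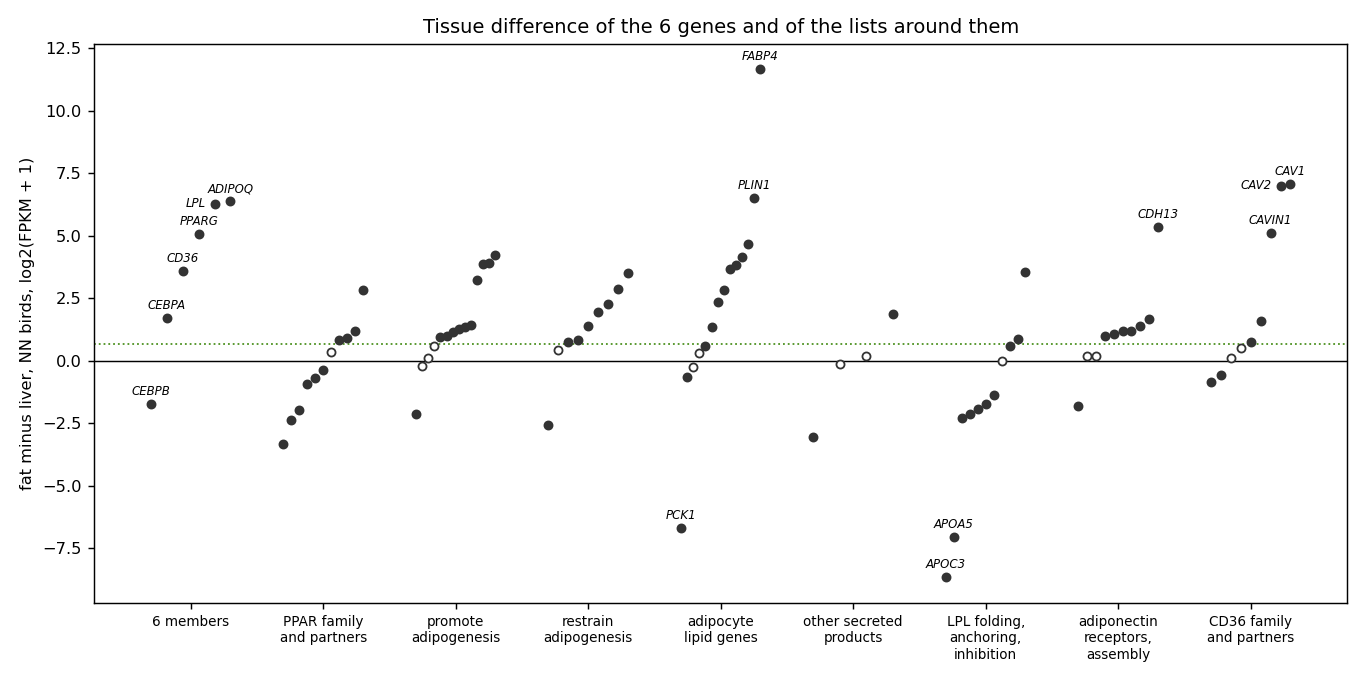
Difference between fat and liver in log2(FPKM + 1) in NN birds for the 6 genes and for each tested gene of 8 related lists, filled where limma gave an adjusted p under 0.05 and open where it did not, with a dotted line at the median of all genes (0.65). FABP4 at 11.66 is the highest point and APOC3 at -8.67 the lowest.

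The LPL list held genes that handle LPL protein, together with the lipases LIPC and LIPG and the receptor VLDLR. Of this list, 11 were tested in NN birds, where 3 were called higher in fat and 7 lower. In HN birds 12 were tested, where 2 and 6 were called. The medians were -1.75 in NN and -1.62 in HN birds. Over all genes, 59.4% were called higher in fat and 16.6% lower in NN birds, and 50.7% and 14.8% in HN birds. Median-ratio scaling gave 1 and 8 on each diet. Over all genes it gave 3981 higher and 4051 lower of 12492 in NN birds, and 3538 and 3716 of 12511 in HN birds. APOC3, an apolipoprotein that inhibits LPL, was 7513.96, 4992.62 and 5893.06 FPKM in NN liver and 12.5, 26.93 and 7.7 FPKM in NN fat, and APOA5, which enhances lipolysis by LPL, was 400 ± 46.2 and 2.05 ± 0.588 FPKM. LIPC, the hepatic lipase, was called higher in liver in NN birds, its HN difference of -1.55 had an adjusted limma p of 0.0766, and its interaction was not called. VLDLR, a receptor for triglyceride-rich particles that works beside LPL, was higher in fat at 28.0 ± 4.61 against 1.47 ± 0.476 FPKM.

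ANGPTL4, a secreted inhibitor that unfolds LPL, was set beside LPL in each library, a choice made after its values were seen. In fat ANGPTL4 was 9, 9.9 and 9.96 FPKM in NN birds and 16.01, 16.39 and 10.48 FPKM in HN birds. In liver it was 36.96, 44 and 39.57 FPKM in NN birds and 95.12, 33.51 and 68.27 FPKM in HN birds. HN liver replicate 2 was the lowest of the 6 livers. The diet difference of ANGPTL4 was 0.50 in fat (SE 0.19, limma adjusted p = 0.799) and 0.58 in liver (SE 0.36, adjusted p = 0.537), neither of which was called. The ratio of LPL to ANGPTL4 was 110 to 112 in NN fat and 45.8 to 84.2 in HN fat, and 0.287 to 0.394 in NN liver and 0.114 to 0.163 in HN liver. The ratio was lower in every HN library than in any NN library of its tissue, given here as a description with no test. LPL alone already lay lower in every HN library, so the ratio is not independent of that. The ratio of LPL to CD36 also separated in liver, at 0.0851 to 0.140 in HN and 0.162 to 0.190 in NN birds. In fat it overlapped, at 1.08 to 1.41 in HN and 1.11 to 1.42 in NN birds.

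**Figure D5:**
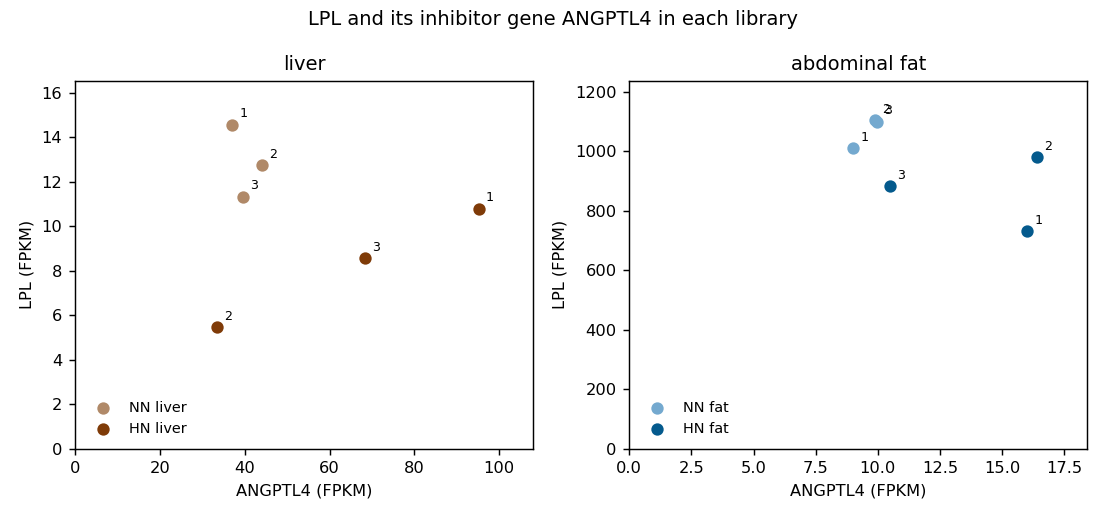
LPL against ANGPTL4 in FPKM for each library, liver on the left and abdominal fat on the right, with replicate numbers beside the points. HN points lie below the NN points on the LPL axis in both tissues (at most 10.8 against at least 11.34 FPKM in liver, and 979.5 against 1011.38 FPKM in fat).

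Among receptors and assembly factors of adiponectin, 10 were tested. In fat 7 were called higher and 1 lower on each diet, with medians of 1.12 in NN and 1.04 in HN birds. Beside these, 59.4% of all genes in NN and 50.7% in HN birds were called higher in fat. Median-ratio scaling gave 6 and 3 in NN and 3 and 3 in HN birds. So scaled, 3981 of all 12492 genes were called higher and 4051 lower in NN birds, and 3538 and 3716 of 12511 in HN birds. CDH13, T-cadherin, which binds adiponectin at the cell surface, was 49.66, 46.92 and 77.38 FPKM in NN fat and 85.05, 94.07 and 92.08 FPKM in HN fat. Its diet difference in fat was 0.67 (SE 0.20, limma adjusted p = 0.799) and was not called. Its liver values did not exceed 0.81 FPKM. The receptor ADIPOR2 was 94.7 ± 17.2 FPKM in NN fat and 35.7 ± 3.47 FPKM in NN liver, and its HN call was lost under median-ratio scaling (0.09, adjusted p = 0.74). APPL1, which couples these receptors to signalling, was called higher in fat, and GSTK1, needed for assembly of adiponectin multimers in mouse fat cells, was called higher in liver.

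For the family and membrane partners of CD36, 9 genes were tested. In fat 5 were called higher and 2 lower in NN birds and 5 and 1 in HN birds. Calls higher in fat covered 59.4% of all genes in NN and 50.7% in HN birds. The medians of 0.74 and 0.64 were close to those of all genes and became 0.03 and -0.09 under median-ratio scaling, which called 4 and 2, and 4 and 3. This scaling called 3981 higher and 4051 lower of all 12492 genes in NN birds, and 3538 and 3716 of 12511 in HN birds. CAV1, CAV2 and CAVIN1, the coat proteins of caveolae in which CD36 resides, had the largest differences. In NN fat CAV1 was 349 ± 64.1, CAV2 300 ± 64.8 and CAVIN1 716 ± 48.5 FPKM, and in NN liver they were 1.73 ± 0.966, 1.33 ± 0.147 and 20.8 ± 7.34 FPKM. FYN, a kinase that binds CD36, was called higher in fat too.

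Among other secreted products of adipose tissue, 4 were tested. On each diet APLN, the hormone apelin, was called higher in fat and RARRES2, which encodes chemerin, was called higher in liver. Over all genes, 59.4% were called higher in fat and 16.6% lower in NN birds, and 50.7% and 14.8% in HN birds. The medians of the list were 0.02 in NN and 0.14 in HN birds, beside 0.65 and 0.64 over all genes. RARRES2 was 2105 ± 56.1 FPKM in NN liver and 254 ± 24.1 FPKM in NN fat. The APLN call of NN birds was lost under median-ratio scaling (1.30, limma adjusted p = 0.0648), which left 0 higher and 2 lower, with 1 and 2 in HN birds. Over all genes it called 3981 higher and 4051 lower of 12492 in NN birds, and 3538 and 3716 of 12511 in HN birds. No gene of the 8 lists was called in a diet comparison or in the interaction. In liver the LPL list had a median diet difference of 0.42 beside -0.06 over all genes. It is named because it was the largest diet median of the 8 lists in either tissue. None of its 12 tested genes was called, and 2 were higher at an unadjusted limma p under 0.05, beside 386 of all 11278 genes. The list holds both inhibitors and enhancers of LPL, so its median has no single meaning for LPL.

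The profiles of the 6 genes over the 12 libraries were compared after centring log2(FPKM + 1) on each gene's mean. The closest members were LPL and ADIPOQ, with a root mean square difference of 0.48, followed by PPARG and CD36 with 0.82. CEBPB and ADIPOQ were the farthest apart, at 4.20. The libraries share tissues, so the 12 points are not independent, and these values are a description.

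Among 12543 genes, up to 3 of the nearest to each member were named by this measure. Those nearest to PPARG were GJD3 (0.30), the protease gene CTSK (0.36) and the lipase gene PNPLA2 (0.38). ADIPOQ was nearest to PRELP (0.21), GSN (0.28) and FBLN2 (0.29), of which PRELP and FBLN2 encode matrix proteins and GSN the actin-severing gelsolin. GSN (0.35) was also near LPL, between MEOX2 (0.31) and the syndecan SDC3 (0.37). PRELP was 166 FPKM by its mean in HN fat and 129 FPKM in NN fat, close to ADIPOQ on both diets, and 0.843 and 0.707 FPKM in liver. Near CD36 were the kinesin gene KIF1B (0.16) and BCL2 (0.18), an inhibitor of cell death. In NN liver the means of BCL2 and MEOX2 were 0.633 and 0.253 FPKM. At such levels log2(FPKM + 1) understates ratios, so nearness on this scale is not nearness in ratio. CEBPA was nearest to TSNAX (0.25), PPAP2C (0.25) and AL928654.7 (0.26), and CEBPB to EDNRB (0.21), RAB40B (0.28) and the Wnt pathway factor TCF7 (0.29). The diet and tissue comparisons share libraries, so their values are not independent of each other.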

How the data were processed

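Total RNA of 3 livers and 3 abdominal fats per diet was sequenced on the BGISEQ-500 platform, and the authors deposited FPKM per gene and library. The submitters' processing notes name HISAT2 2.0.4, Bowtie2 2.2.5 and RSEM 1.2.12 without their roles, and the genome build is not given in the sources used here. Samples were grouped by their titles.

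Genes that averaged 1 FPKM or more in the fitted libraries were tested with limma 3.58.1 (eBayes with trend) in R 4.3.3 on log2(FPKM + 1), two-sided, with Benjamini-Hochberg adjustment over all genes tested. This scale understates the change of low genes. Each 2-group comparison used its own 6 libraries and the interaction all 12. The fits were tested on simulated data. Other steps used Python 3.11.15, numpy 2.4.6, pandas 2.3.3 and matplotlib 3.10.9.

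The 6 genes and the lists were chosen with earlier results of these data known. List genes were named by the largest called tissue differences in NN birds, up to 4 per list. Others were chosen after their values were seen, where stated. Of 153 list and marker symbols, 10 were found through the RefSeq gene table and 12 were not analysed here. A few single-gene results are not reported here.

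Same-numbered fat and liver libraries deviated together within each diet (correlations of 0.23 to 0.29 in NN and 0.12 to 0.40 in HN birds). Differently numbered libraries gave -0.17 to -0.08 in NN and -0.37 to 0.19 in HN birds, so the ranges overlapped in HN birds. No source states that same-numbered tissues came from 1 bird. The main fits therefore treated the libraries as unpaired, and a pairing by number entered only as the replicate block. Alternatives were the replicate block, other scalings, a pseudocount of 0.1, no filter, all 12 libraries in 1 fit and leaving out each library.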

Additional observations from a re-analysis of the deposited data

How the results depend on the processing

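Of 478 alternative values, 471 kept their side of the threshold or, for counts of calls, about their size. For counts only the total of both directions was compared. Median-ratio scaling of the NN tissue comparison, with 3981 higher and 4051 lower in place of 7416 and 2075, was thus among the 471. Sign changes of uncalled values were counted as kept too. All 12 libraries in 1 fit gave 28 diet calls in liver (16 higher and 12 lower, no member among them) in place of 0, and 0 in fat in place of 1. CEBPA lost its tissue call in HN birds under median-ratio scaling (0.48, adjusted p = 0.208). The interaction gave 0 to 4 calls when 1 library was left out, with 2 without HN fat replicate 3, 2 without HN liver replicate 1 and 4 without HN liver replicate 3. The cause was not tested.

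With the replicate block, the interaction gave 4 calls, fat against liver gave 9669 calls (7540 higher and 2129 lower) in NN birds and 8545 (6594 and 1951) in HN birds, and the block changed no call of the 6 genes. Same-numbered HN and NN libraries did not correlate in every pair (-0.04 to 0.40 in liver, 0.04 to 0.22 in fat), so the block is only an alternative for diet, with 0 calls in liver and 1 in fat.

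LPL was lower in HN birds under all 13 alternatives in each tissue (-0.81 to -0.38 in liver, limma adjusted p 0.208 to 0.823, and -0.41 to -0.20 in fat, adjusted p 0.469 to 0.999). Its diet groups did not overlap, so leaving out a library could not change this sign. No filter, all 12 libraries in 1 fit and the replicate block left the estimate as it was. The shared sign is therefore mostly not separate evidence. The diet sign changed under 4 of 13 alternatives for CD36 in liver and CEBPB in fat, 2 for CEBPA and CEBPB in liver and 1 for PPARG in fat, and the interaction sign of CEBPB under 3 of 18, all uncalled values. The depth of the libraries is unknown, and values near 1 FPKM, such as ADIPOQ and PPARG in liver, are the least certain.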
